A study of Rattus norvegicus with 6 samples.

Results

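Endothelial nuclei, the nuclei of the cells that line blood and lymphatic vessels, made up 814 of the 40970 ileal nuclei that passed quality control. A nucleus was taken as endothelial if it had at least 1200 unique molecular identifiers (UMIs, each standing for 1 captured RNA molecule), at least 500 genes and at most 5% mitochondrial UMIs, and if it held UMIs of at least 3 of the 12 genes Pecam1, Flt1, Vwf, Cdh5, Kdr, Tek, Ptprb, Egfl7, Mmrn1, Prox1, Reln and Flt4. The 290 endothelial nuclei with at least 2 of the 4 lymphatic genes (Mmrn1, Prox1, Reln and Flt4) were taken as lymphatic, and the other 524 as blood endothelial nuclei. The members were therefore chosen by measured values, so the 12 genes are described and their tests of SAP against CON are not reported. They stayed in the fits and, where they passed the filter on low counts, are among the genes tested. In an alternative fit at a limit of 1% mitochondrial UMIs Pecam1 was called, and that call is not used.

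Nuclear RNA was counted in 6 libraries of rat ileum, 1 per animal, from 3 control (CON) rats and 3 rats with severe acute pancreatitis (SAP). All were wild type male Sprague–Dawley rats, 6 weeks old, and the labels placed all 6 libraries in batch 1. SAP rats had 3% sodium taurocholate, a bile salt, run backwards into the pancreatic duct at 0.1 mL per 100 g of body weight and the duct clamped for 5 min, whereas CON rats had a sham laparotomy with no infusion. The ileum was taken at 24 h, so the groups differ in the infusion and clamping as well as in the disease, and 1 time point was sampled.

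Blood endothelium forms the barrier between blood and tissue. In the gut its capillaries are fenestrated, its venules carry the addressins and selectins that let leukocytes leave the blood, and its growth and rest are set largely by the VEGF and angiopoietin receptors. Lymphatic endothelium, whose fate is set by the transcription factor Prox1, lines the lacteals that take up chylomicrons and the vessels through which dendritic cells and lymphocytes leave the gut wall, guided by the chemokine Ccl21.

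The promoters of the leading gene of each of the 3 comparisons of levels described below are shown. Each has the largest fold of mean CPM (defined below) among the genes outside the rule that had a RefSeq promoter. They are Madcam1 (the mucosal addressin that binds gut-homing lymphocytes) for endothelial against other nuclei, Ccl21 for lymphatic against blood endothelial nuclei, and Pdgfb (the growth factor by which endothelium recruits pericytes) for blood against lymphatic. Each is the 250 bases before the RefSeq transcription start on GRCr8, all on the minus strand, at chr7:10690323-10690572 for Madcam1, chr5:61777516-61777765 for Ccl21 and chr7:113438344-113438593 for Pdgfb. Capitals mark AGGAAG, searched on both strands, which holds the GGAA core bound by ETS factors, the family of the endothelial regulators Erg and Fli1.
Madcam1: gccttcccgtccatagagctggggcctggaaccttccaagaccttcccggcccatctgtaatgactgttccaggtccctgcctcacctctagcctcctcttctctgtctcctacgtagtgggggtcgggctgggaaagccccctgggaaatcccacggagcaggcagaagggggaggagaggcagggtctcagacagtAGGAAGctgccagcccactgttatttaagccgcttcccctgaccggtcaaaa
Ccl21: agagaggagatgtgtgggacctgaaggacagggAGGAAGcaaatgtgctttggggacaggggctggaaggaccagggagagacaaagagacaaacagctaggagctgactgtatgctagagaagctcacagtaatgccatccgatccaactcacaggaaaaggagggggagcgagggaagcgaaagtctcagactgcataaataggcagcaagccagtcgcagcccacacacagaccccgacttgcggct
Pdgfb: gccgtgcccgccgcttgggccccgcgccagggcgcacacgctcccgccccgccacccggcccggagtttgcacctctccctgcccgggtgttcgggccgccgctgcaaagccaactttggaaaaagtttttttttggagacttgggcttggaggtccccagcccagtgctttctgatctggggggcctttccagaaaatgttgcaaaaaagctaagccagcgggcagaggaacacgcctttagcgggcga
The match began 52 bases before the start of Madcam1 and 217 bases before that of Ccl21, and Pdgfb held none. AGGAAG or its reverse complement was present in 14 of the 33 leading genes with a RefSeq promoter (42.4%), out of 44 leading genes, and in 29.4% of all 27457 rat promoters of the same length. A match describes these letters and is not a binding site.

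The libraries differed strongly in how many endothelial nuclei and UMIs they gave. CON 1, CON 2 and CON 3 held 155, 26 and 227 endothelial nuclei with 1750086, 76303 and 1262524 UMIs, and SAP 1, SAP 2 and SAP 3 held 18, 65 and 323 with 54413, 587049 and 1920363 UMIs, out of 17367554 to 31397724 UMIs per library over all barcodes. CON 2 and SAP 1, the 2 libraries whose tables also list barcodes under 1000 UMIs (15242 and 20899 of them), were the thinnest: 1 UMI there equalled 13.1 and 18.4 CPM (a gene's UMIs over all UMIs of the summed nuclei, times 1e6) against 0.521 to 1.70 in the other 4. Values of low genes in CON 2 and SAP 1 therefore rest on few molecules.

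Depth per nucleus stood apart in 2 other libraries. The median endothelial nucleus had 6928 UMIs in CON 1 and 5122 in SAP 2, against 1931.5 to 2653 in the other 4, while other nuclei had medians of 1514 to 1881. Over all libraries the median was 2906 UMIs for endothelial and 1752 for other nuclei, and 273 of the 814 endothelial nuclei had at least 5000 UMIs. A deeper nucleus has more chances to hold 3 of 12 genes, also from free RNA or a second nucleus in the droplet. When every nucleus was thinned at random to 1200 UMIs before the rule was applied, 311 nuclei remained, with 43, 13 and 101 in CON 1 to 3 and 12, 14 and 128 in SAP 1 to 3.

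The label was checked against 27 endothelial genes that the rule did not use, among them the transcription factors Erg and Fli1, the claudin Cldn5, Emcn, Plvap and Shank3. All 27 were higher in endothelial than in other nuclei by mean CPM, and their summed level was 925, 2228 and 1278 CPM in CON 1 to 3 and 3290, 530 and 1337 CPM in SAP 1 to 3, against 141 to 583 CPM in other nuclei. The sum was above that of other nuclei in all 6 libraries and lowest in the deep nuclei of CON 1 and SAP 2. Nuclei just outside the rule, with 2 of its genes, had 590 CPM of these 27 genes, and nuclei just inside it, with 3, had 834 CPM. The sum reached 1228 CPM in the 191 nuclei with 4 rule genes. A higher mean level than in other nuclei was not particular to endothelial genes. It was also found for 9 of 9 smooth muscle, 9 of 10 pericyte, 9 of 10 fibroblast and 9 of 10 B cell genes. The same held for 9 of 11 T cell and 9 of 11 macrophage genes, but for only 5 of 22 epithelial and 2 of 12 enteroendocrine genes.

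After thinning to equal depth, 51.4% of nuclei with 3 rule genes held at least 3 of the 27 other endothelial genes, against 16.0% of those with 2 and 0.556% of those with none. At 3 rule genes the share was 14.3% of 7 nuclei in SAP 2, 71.4% of 7 in CON 2 and 80.0% of 5 in SAP 1, and 47.8% to 54.2% of 24 to 69 nuclei in the other 3 libraries. Without thinning, 530 of the 814 members (116, 17 and 141 in CON 1 to 3 and 13, 34 and 209 in SAP 1 to 3) held at least 3 of the 27. The unused markers thus carried the label on average, with too few nuclei in SAP 2, CON 2 and SAP 1 to rank these libraries after thinning.

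**Figure D1:**
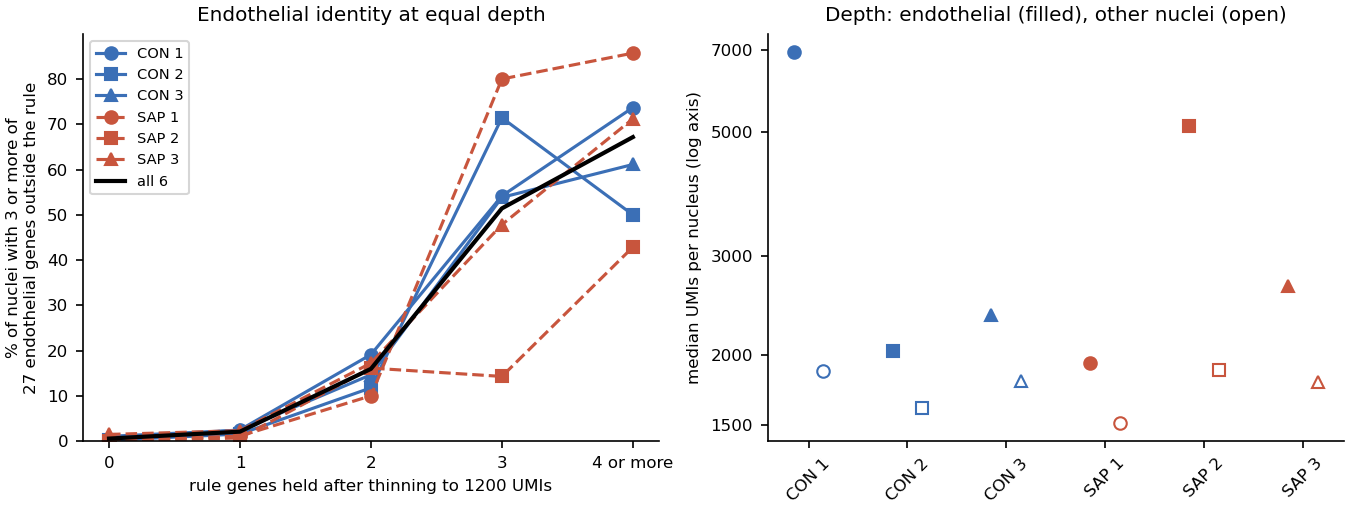
Left, percent of nuclei holding 3 or more of 27 endothelial genes outside the rule (y axis) by the number of rule genes held after thinning to 1200 UMIs (x axis), for each library (CON solid, SAP dashed) and for all 6 (black). Right, median UMIs per nucleus on a log axis for endothelial (filled) and other nuclei (open); the endothelial nuclei of CON 1 (6928) and SAP 2 (5122) stand above the other 4 libraries.

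Transcripts of other cell types were present in the endothelial sums. The 22 epithelial genes summed to 53672, 14062 and 33176 CPM in CON 1 to 3 and 23579, 12072 and 14954 CPM in SAP 1 to 3, led by the Paneth defensin Defa24. In other nuclei of the same libraries they summed to 60285, 12159 and 13115 CPM in CON and 34708, 15425 and 12355 CPM in SAP. The endothelial sum was the higher one in CON 2, CON 3 and SAP 3. At least 3 of these 22 genes were held by 99.8% of endothelial nuclei and by 99.7% of all passing nuclei, so such a nucleus could not be told from a clean one by them. The 9 smooth muscle genes, led by Myh11, summed to 2149, 419 and 669 CPM in CON and 643, 158 and 561 CPM in SAP, highest in CON 1. In other nuclei they summed to 428, 400 and 862 CPM in CON and 297, 97.6 and 501 CPM in SAP, above the endothelial sum only in CON 3. The B cell list (10 genes measured) gave 128, 524 and 688 CPM in CON and 827, 71.5 and 1117 CPM in SAP. In other nuclei it gave 46.8, 73.3 and 346 CPM in CON and 85.2, 30.9 and 1046 CPM in SAP, lower in every library.

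Of the rule genes, the vascular junction protein Pecam1 averaged 319 ± 149 CPM in blood, 269 ± 302 in lymphatic and 44.1 ± 54.6 in other nuclei (mean ± SD, n = 6 libraries here and for the levels that follow). The VEGF receptor Flt1 averaged 291 ± 166, 102 ± 102 and 11.1 ± 6.87 CPM in the same order, and the clotting factor Vwf 138 ± 105, 39.0 ± 32.1 and 6.39 ± 3.70 CPM. Pecam1 and Flt1 were lowest in CON 1 and SAP 2 among the blood sums, with Pecam1 at 117, 460 and 326 CPM in CON 1 to 3 and 478, 170 and 362 CPM in SAP 1 to 3. The remaining blood genes of the rule, namely the VE-cadherin gene Cdh5, the VEGF receptor Kdr, the angiopoietin receptor Tek, its phosphatase Ptprb and Egfl7, all had mean levels at least as high in blood as in lymphatic nuclei. These ranged from 23.7 CPM for Cdh5 to 223 CPM for Ptprb in blood nuclei and from 1.22 to 6.91 CPM for the same genes in other nuclei.

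Of the lymphatic rule genes, Reln, a secreted glycoprotein, averaged 694 ± 450 CPM in lymphatic, 69.8 ± 28.2 in blood and 25.3 ± 11.3 in other nuclei. Prox1 averaged 195 ± 229, 33.6 ± 23 and 26.6 ± 10.8 CPM in that order, where the rule itself caps the lymphatic genes in blood nuclei. Mmrn1 averaged 172 ± 135, 24.1 ± 33.3 and 2.58 ± 2.11 CPM, and the lymphatic VEGF receptor Flt4 averaged 47.0 ± 36.2, 7.38 ± 8.28 and 1.77 ± 1.26 CPM. A Reln UMI was present in 95.2% of lymphatic, 28.4% of blood and 4.98% of other nuclei, and a Pecam1 UMI in 45.9%, 76.7% and 7.39%. After thinning to 1200 UMIs these shares were 56.2%, 13.9% and 3.10% for Reln and 20.7%, 43.9% and 4.88% for Pecam1.

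Among genes outside the rule with at least 30 UMIs in endothelial nuclei and a higher level there in all 6 libraries, Madcam1 led with a 35.9-fold higher mean CPM than in other nuclei (58.3 ± 98.6 against 1.62 ± 1.90). Its levels were 8.57, 13.1 and 16.6 CPM in CON 1 to 3 and 257, 6.81 and 47.4 CPM in SAP 1 to 3. SAP 1, the thinnest library, carries much of this mean, and the fold was 10.5 without it and 68.3 without SAP 3. Next came Cd93 (35.7-fold), a surface glycoprotein of endothelium, and Cyp26b1 (29.8-fold), which breaks down retinoic acid. Plvap, which forms the diaphragms of fenestrae, was 23.8-fold higher, at 27.4, 65.5 and 27.7 CPM in CON and 147, 1.70 and 40.1 CPM in SAP. The sialomucins Cd34 and Emcn were 22.6-fold and 17.2-fold higher, the scaffold protein Shank3 18.8-fold and the adrenomedullin receptor partner Ramp2 17.7-fold. Cyyr1, Dipk2b, Clec1a, Crip2, Adgrf5, Fam110d and Kank3 completed the 15 leading genes, at 16.5-fold to 25.3-fold. Without SAP 1 the folds of the 15 were 8.17 to 16.7, with Cd93 at 16.7 and Plvap at 13.2, and without SAP 3 that of Plvap was 40.5 and that of Dipk2b 30.9. Folds with a library left out were chosen after seeing the data.

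Madcam1 marks venules through which lymphocytes enter the gut and its lymphoid follicles. Glycam1, a ligand of L-selectin on high endothelial venules that was picked after its values were seen, was at 0, 0 and 143 CPM in blood endothelial nuclei of CON 1 to 3 and 0, 0 and 72.8 CPM in those of SAP 1 to 3. Both replicates numbered 3 thus held it, with 193 UMIs in all blood nuclei, and the other 4 libraries had none, which allows up to 53.1 CPM in CON 2 and 68.3 CPM in SAP 1. The same 2 libraries had the highest B cell levels in other nuclei, with 346 CPM in CON 3 and 1046 CPM in SAP 3 against 30.9 to 85.2 CPM elsewhere. Per the study's methods, pieces with Peyer's patches or lymphoid aggregates that could be seen were left out or cut away, and the part of lymphoid tissue in these values was not tested.

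Lymphatic nuclei were led by Ccl21, at 409, 2375 and 22.6 CPM in CON 1 to 3 and 95.2, 24.4 and 211 CPM in SAP 1 to 3, a mean 18.8-fold above that of blood endothelial nuclei. CON 2, with 8 lymphatic nuclei and 19792 UMIs, carries much of it, and the fold was 5.12 without CON 2 and 31.0 without SAP 1. Lyve1, a hyaluronan receptor of lymphatic vessels, was at 37.5, 202 and 27.8 CPM in CON and 95.2, 39.7 and 29.2 CPM in SAP (9.04-fold). Sema3d, a secreted semaphorin, was at 20.1, 101 and 40.0 CPM in CON and 95.2, 9.15 and 45.5 CPM in SAP (9.03-fold). In lymphatic nuclei 1 UMI equalled 50.5 CPM in CON 2 and 95.2 CPM in SAP 1, so Ccl21, Lyve1 and Sema3d each rested on 1 UMI in SAP 1. The fold of Lyve1 was 4.81 without CON 2 and 13.7 without CON 1, and that of Sema3d 16.6 without SAP 3. Col23a1 (4.69-fold), Wnt3 (4.22-fold), Hivep3 (3.21-fold) and the guidance genes Ntn1 (2.54-fold) and Robo2 (2.34-fold) followed, with Dennd2a, Grhpr, Efna1, Hdac9, Rasgrp2, Lama4 and Abi3bp at 2.16-fold to 2.99-fold. Without CON 2 the folds of the 15 were 1.5 to 6.10, and without CON 1 that of Wnt3 was 7.02.

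The lymphatic label rested most firmly on the nuclei that held 3 or 4 lymphatic genes. The 17 lymphatic genes outside the rule summed to 662.5 CPM in nuclei with none of the 4 lymphatic rule genes, 526 CPM with 1, 721 CPM with 2, 2000.5 CPM with 3 and 6256 CPM with all 4. Just inside the threshold, at 2 genes (215 of the 290 lymphatic nuclei), the sum was close to that just outside it, whereas it was clearly higher in the 59 nuclei with 3 and the 16 with 4. Lyve1 followed the same steps, at 17.1, 11.3, 15, 88.8 and 390 CPM from none to 4.

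A pair of genes accounted for many of the nuclei at 2. Reln and Prox1 were the only lymphatic genes in 107 of the lymphatic nuclei, whose median depth was 5439 UMIs against 2446 in the other 183. Ccl21 was at 34.0 CPM in these 107 nuclei and 435 CPM in the other 183, and Lyve1 at 4.05 and 70.7 CPM. A UMI of Lyve1, Ccl21, Tbx1 or Sema3d was found in 31 of the 107 and 95 of the 183. Foxc2, a regulator of lymphatic valves, had no UMI in any endothelial nucleus. The 107 nuclei are therefore called by the rule here, since lymphatic genes outside it were low in them.

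Blood endothelial nuclei were led by Pdgfb, 24.6-fold above the lymphatic mean and at 6.97, 88.5 and 13.1 CPM in CON 1 to 3 and 114, 3.86 and 13.8 CPM in SAP 1 to 3. Nos3, the endothelial nitric oxide synthase, was 13.1-fold higher, at 12.9, 53.1 and 26.2 CPM in CON and 114, 27 and 39.9 CPM in SAP. Pdgfb was at 0 CPM in the lymphatic sums of 5 libraries and at 9.75 CPM in SAP 3, and zeros there allow up to 152 CPM in CON 2 and 286 CPM in SAP 1. Its fold was 12.9 without SAP 1 and 15.6 without CON 2, and without SAP 3 no fold can be given. That of Nos3 was 7.63 without SAP 1, 21.0 without SAP 3 and 22.6 without CON 1. Cd36, a fatty acid carrier of capillaries, was 5.02-fold higher, and the BMP receptor Acvrl1 4.95-fold. Rex2, Palmd, Hrct1, Cyyr1, the metalloprotease Adamts9, Polr2i, Cd5, Tamalin, Csf2rb, Col16a1 and Ly6m stood between 4.71-fold and 9.94-fold. Without SAP 1 the folds of the 15 were 1.89 to 12.9, lowest for Adamts9. Other libraries moved folds up by over 1.5 times, to 16.6 for Palmd and 14.6 for Hrct1 without CON 1, 9.83 for Cyyr1 without CON 2, 10.2 for Polr2i, 8.82 for Tamalin and 8.92 for Csf2rb without CON 3, 17.5 for Rex2 and 8.56 for Ly6m without SAP 2, and 8.89 for Cd36 and 8.10 for Cd5 without SAP 3. The capillary fatty acid binding protein Fabp4 ranged from 0 CPM in SAP 2 to 655 CPM in CON 2 within blood nuclei, and so had no stable level.

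**Figure D2:**
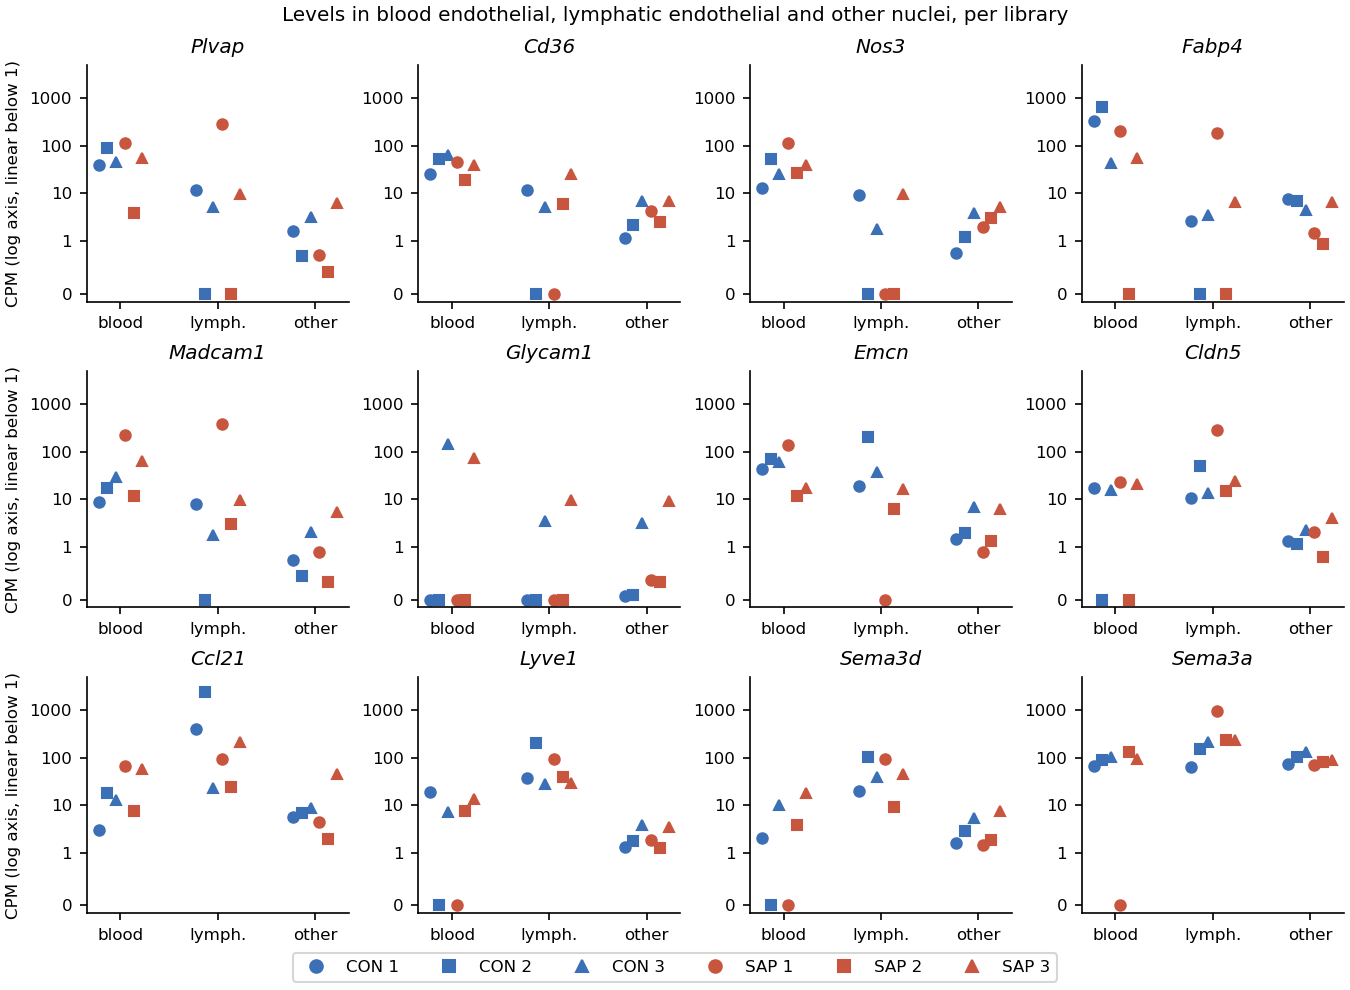
CPM of 12 genes (y axis, logarithmic, linear below 1) in the summed blood endothelial, lymphatic endothelial and other nuclei (x axis), 1 point per library, CON blue and SAP red, the shape giving the replicate number. Nos3 lies higher in blood than in lymphatic nuclei, where it is at 0 in CON 2, SAP 1 and SAP 2, Ccl21 and Lyve1 are higher in lymphatic nuclei of each library, and Glycam1 is found in the endothelial nuclei of CON 3 and SAP 3 only.

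Whether pancreatitis changed how many endothelial nuclei were recovered was asked first. Endothelial nuclei were 1.68%, 0.415% and 2.70% of passing nuclei in CON 1 to 3 and 0.564%, 1.09% and 4.09% in SAP 1 to 3, or 1.60 ± 1.14% against 1.92 ± 1.90% (SD, n = 3 per group). The groups overlapped, and the exact two-sided permutation test gave p = 0.8, where 3 against 3 cannot go below 0.1. Blood endothelial nuclei were 0.973%, 0.288% and 1.66% in CON and 0.439%, 0.519% and 2.93% in SAP (exact permutation p = 0.8). Lymphatic nuclei were 0.703%, 0.128% and 1.03% in CON and 0.125%, 0.570% and 1.17% in SAP (exact permutation p = 0.9).

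Lymphatic nuclei made up 37.0 ± 5.70% of the endothelial nuclei of CON rats and 34.3 ± 15.9% of those of SAP rats (n = 3 per group, exact permutation p = 0.9). None of the 4 share comparisons had a p under 0.05 before adjustment. The largest endothelial share, 4.09% in SAP 3, had an exact (Clopper-Pearson) 95% interval of 3.67% to 4.55%, and the smallest, 0.415% in CON 2, one of 0.271% to 0.608%. These intervals cover counting error only, and the spread between libraries of 1 group was wider than they are. Among the 2 libraries that list barcodes under 1000 UMIs the SAP library was 0.149 percentage points above the CON library, and among the other 4 the difference of means was 0.404. Shares in sums of nuclei do not tell fewer cells from fewer nuclei recovered.

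**Figure D3:**
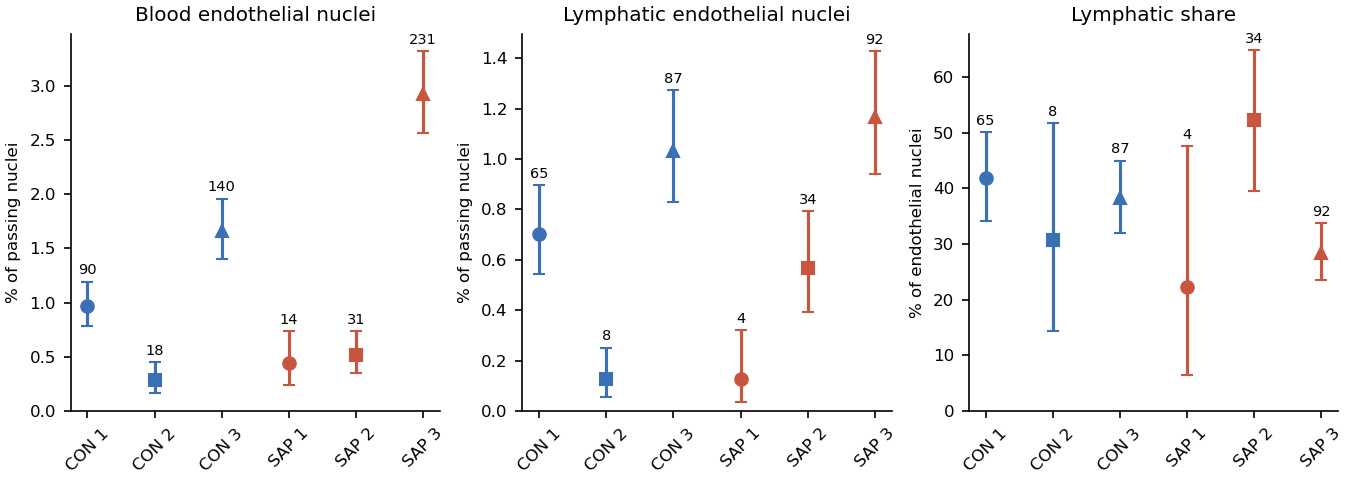
Blood and lymphatic endothelial nuclei as a percent of passing nuclei, and lymphatic nuclei as a percent of endothelial nuclei (y axes), per library (x axis), with the number of nuclei above each point and exact 95% binomial intervals as bars. CON and SAP overlap in all 3 panels, and SAP 3 has the most blood endothelial nuclei (231).

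St8sia6, a sialyltransferase that adds sialic acid to sialic acid, was the 1 gene that differed between SAP and CON endothelial nuclei among 11408 tested (0.00877%), by edgeR's quasi-likelihood test at a Benjamini-Hochberg adjusted p under 0.05 and a log2 fold change of at least 0.5 in size. Its level was 154, 223 and 205 CPM in CON 1 to 3 and 0, 5.11 and 14.6 CPM in SAP 1 to 3, so that every SAP library lay far below every CON library. The 0 in SAP 1 is out of 54413 UMIs, which allows up to 55.1 CPM. The log2 fold change was -4.23 ± 0.44 (SE, n = 3 per group, adjusted p = 0.00253).

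The level of St8sia6 was lower in SAP in blood endothelial nuclei and, without a test, in the nuclei that the rule took as lymphatic. In blood endothelial nuclei the level was 173, 212 and 189 CPM in CON and 0, 7.71 and 15.3 CPM in SAP (log2 fold change -3.98 ± 0.43, edgeR adjusted p = 0.00422), the 1 call among 8720 genes (0.0115%). In lymphatic nuclei, for which no fit was made, it was 129, 253 and 224 CPM in CON and 0, 3.05 and 13 CPM in SAP, where the 0 in SAP 1 allows up to 286 CPM. That limit lies above every CON value, and 215 of the 290 lymphatic nuclei held only 2 of the lymphatic rule genes. Other nuclei had 192, 330 and 314 CPM in CON and 6.55, 1.81 and 14.5 CPM in SAP (log2 fold change -5.29 ± 0.61, edgeR adjusted p = 0.477). In each CON library the endothelial level was below that of the other nuclei, and what free RNA adds to it was not tested. With only the 4 libraries that list no barcode under 1000 UMIs, both calls were lost, as they were at a limit of 1% mitochondrial UMIs, and with at least 4 rule genes the call in blood nuclei was lost. Over the 16 alternatives in which the gene could be tested, which leaves out thinning, the log2 fold change was between -5.32 and -3.91 in endothelial and between -4.86 and -3.82 in blood nuclei.

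Slc39a10, which brings zinc into the cell, came next. Its level was 397, 275 and 226 CPM in CON and 36.8, 39.2 and 101 CPM in SAP, with no overlap, and the log2 fold change of -2.28 ± 0.43 did not pass (edgeR adjusted p = 0.66). In blood nuclei it was 308, 230 and 233 CPM against 45.5, 30.9 and 74.3 CPM (-2.32 ± 0.38, edgeR adjusted p = 0.164). In other nuclei it was 497, 155 and 133 CPM in CON and 140, 31.9 and 74.5 CPM in SAP. In both endothelial and blood nuclei the gene passed with DESeq2 and with the replicate number as a block. By edgeR it also passed in both with no filter on low counts and without SAP 2.

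With the replicate number as a block, 29 genes passed in endothelial and 8 in blood nuclei by edgeR, against 1 and 1 without it. They were 0.233% of 12472 and 0.0817% of 9796 genes tested. The labels do not say that equal replicate numbers are pairs. Over endothelial sums, deviations from the group means correlated at -0.00923 to 0.0591 for equal numbers and at -0.111 to 0.108 for unequal ones. Il1r1, the interleukin-1 receptor found on venules, was at 24.0, 26.2 and 33.3 CPM in CON and 312, 39.2 and 89.6 CPM in SAP, with a log2 fold change of 1.80 ± 0.60 without the block (edgeR adjusted p = 1) and 2.04 with it (adjusted p = 0.0316). Madcam1 had 2.12 ± 0.93 without the block, with overlapping groups, and 2.56 with it (edgeR adjusted p = 0.0310). Adamts9 had 1.72 ± 0.81 and 2.11 (edgeR adjusted p = 0.0382). The class I gene RT1-CE5 had 1.67 ± 0.50 and 1.66 (edgeR adjusted p = 0.0282). None of these 4 was called with the block in blood endothelial nuclei, where the 8 were Defa24, Defa8, Defa9, Defal1, Pla2g2a, RatNP-3b, Slc39a10 and St8sia6. Il1r1, Madcam1 and Adamts9 were highest in SAP 1, whose endothelial sum holds 54413 UMIs.

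The 29 also include the Paneth cell genes Defa24, Defa8, Defa9, Mmp7 and Pla2g2a, which were lower in SAP, the goblet cell genes Spink4 and Itln1 and the neutrophil genes S100a8 and S100a9, which were higher, and the smooth muscle gene Actg2, which was lower. Pla2g2a, a secreted phospholipase of Paneth granules, was at 8962, 1874 and 2179 CPM in CON endothelial nuclei and 1011, 126 and 498 CPM in SAP, and had the same sign in other nuclei (log2 fold change -3.29 and -2.58). Itln1, a lectin of secretory epithelium, was at 52.0, 39.3 and 181 CPM in CON and 3804, 341 and 682 CPM in SAP (3.83, and 4.50 in other nuclei). Their part in the endothelial counts, as free RNA or mixed droplets, was not tested.

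Further genes were named by the smallest p among those whose groups did not overlap. After St8sia6 edgeR called none of them without the replicate block in all 6 libraries with the filter on low counts. In that setting DESeq2 called Mmp7 (log2 fold change -3.06, DESeq2 adjusted p = 0.0273) and Slc39a10 (-2.31, 0.0339) in endothelial nuclei. In blood nuclei it called Slc39a10 (-2.34, DESeq2 adjusted p = 0.0286). With the block, ATP6 (edgeR adjusted p = 0.0325), ND5 (0.00241), Cbr1l2 (0.0183), Itln1, Mmp7, Pla2g2a and Slc39a10 were called in endothelial nuclei, and Pla2g2a and Slc39a10 in blood nuclei. Without overlap, 3.66% of all tested genes were higher and 5.48% lower in SAP in endothelial nuclei, 3.43% and 5.56% in blood endothelial nuclei, and 5.21% and 9.65% in other nuclei. At an unadjusted p under 0.05 the shares were 1.52% higher and 1.74% lower (3.26% in all) in endothelial and 1.25% and 1.69% (2.94% in all) in blood nuclei. In endothelial nuclei the 12 named as higher in SAP by this rule were Slpi, Itln1, S100a6, ATP6, ND5, St3gal4, Ada, Acaa2, CYTB, Acot3, ND1 and Abhd16a, of which ATP6, ND5, CYTB and ND1 are encoded by the mitochondrial genome. The median endothelial nucleus of CON 1 to 3 had 0.463%, 0.156% and 0.297% mitochondrial UMIs and that of SAP 1 to 3 had 1.84%, 1.03% and 0.446%, a difference whose part was not tested. S100a8, RT1-CE16 and RT1-CE5, whose groups overlap, had a smaller p than ATP6 and the genes after it. The 11 named as lower in SAP after St8sia6 were Slc39a10, Mmp7, Pla2g5, Cbr1l2, the zinc transporter Slc30a2, the protease Gzmb, the muscle light chain Myl9, Pla2g2a, Slco2b1, Fam117b and Wnt3. In blood nuclei Tp53i13, Il1r1, Shisa5, COX3, Btg1 and Anxa13 (higher) and Sema5a, Asb2, Gfra4 and Gucy1a1 (lower) joined the list, none of them called.

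**Figure D4:**
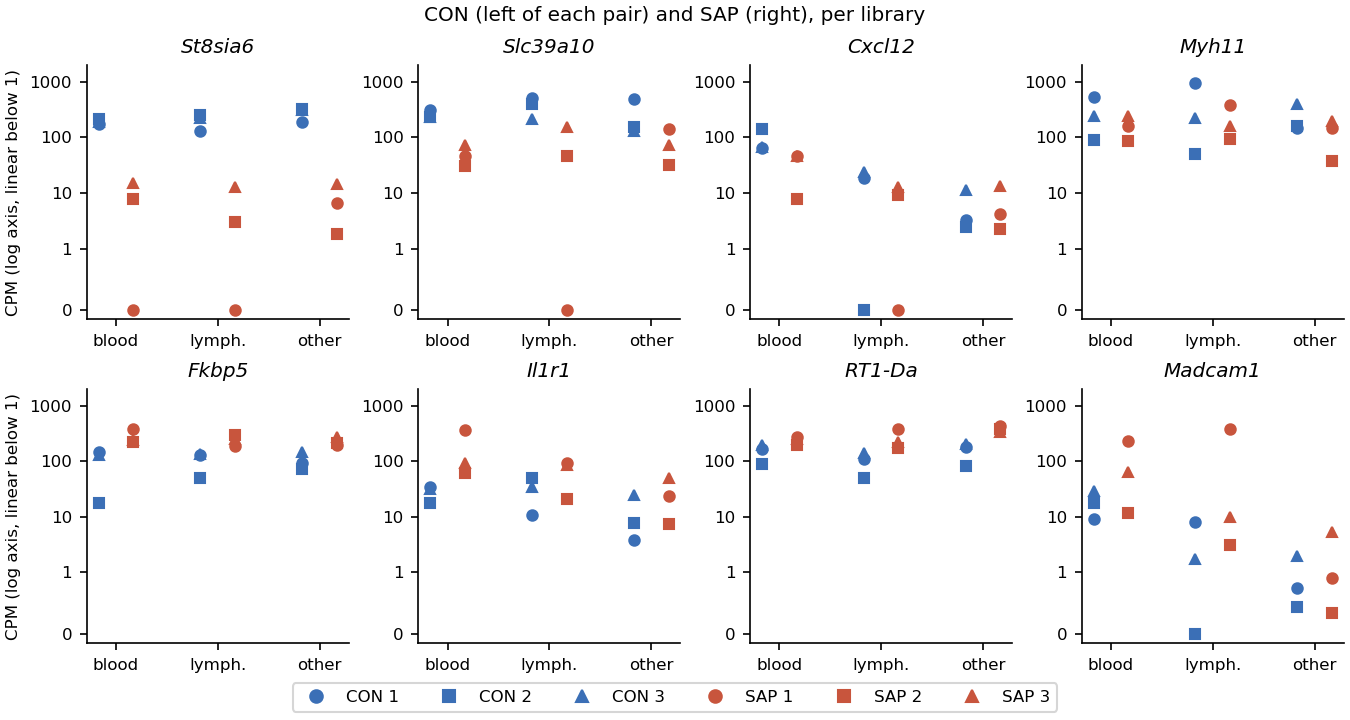
CPM of 8 genes (y axis, logarithmic, linear below 1) in blood endothelial, lymphatic endothelial and other nuclei (x axis), CON (blue) on the left and SAP (red) on the right of each pair, 1 point per library. St8sia6 lies lower in SAP than in CON libraries in all 3 classes of nuclei (its 0 in SAP 1 lymphatic nuclei rests on 10503 UMIs), and its change is the only one of the 8 that passed edgeR in endothelial nuclei with all 6 libraries, the filter on low counts and no replicate block.

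With all 6 libraries and no replicate block no identity gene was called. Of the venous genes, Il1r1 was called without SAP 2 (log2 fold change 2.19, edgeR adjusted p = 0.0429), and Il1r1 and Madcam1 with the block. Of all tested genes 50.5% had a log2 fold change above and 49.5% below 0 in endothelial nuclei, and 52.3% and 47.7% in blood nuclei. Of the 27 endothelial genes outside the rule, 23 were tested, 10 with a positive and 13 with a negative log2 fold change, a median of -0.07 beside 0.01 for all tested genes, and none called. Emcn was at 32.6, 105 and 49.9 CPM in CON and 110, 8.52 and 17.2 CPM in SAP (-1.35 ± 0.70). Of 13 lymphatic genes tested 10 were negative (median -0.26), with Ccl21 at -1.81 ± 1.08. The capillary list (12 tested, 7 negative) had a median of -0.22, and there Fabp5 was at -1.55 ± 0.67 and Gpihbp1, which anchors lipoprotein lipase on capillaries, at -1.99 ± 1.00. The arterial list (8 tested, 4 negative) had a median of -0.19, with Clu at -1.10 ± 0.69 and Dll4, a Notch ligand, at -0.49 ± 0.51. The venous list (8 tested, 5 positive) had a median of 0.45, with Il1r1 and Madcam1 positive and Cpe, carboxypeptidase E, at -1.10 ± 0.40.

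Leukocyte adhesion genes had both signs, 8 of 17 tested positive and 9 negative with a median of -0.07, and none called without the replicate block in all 6 libraries, while Madcam1 was called with it. Cxcl12, a chemokine presented by endothelium, was at 44.6, 105 and 48.3 CPM in CON and 36.8, 8.52 and 35.9 CPM in SAP, lower in each SAP library (-1.24 ± 0.52). Its log2 fold change in other nuclei was 0.18, and the difference, tested below, was not called in the main fit. In SAP 1, 1 UMI equalled 18.4 CPM. Of the 17 adhesion genes 2 were lower and 0 higher in SAP without overlap, beside 5.48% and 3.66% of all tested genes. Aoc3, the vascular adhesion protein, was at -1.99 ± 0.77. The inducible adhesion molecules, picked after their values were seen, were near the limit of detection. Icam1 was at 15.4, 0 and 8.71 CPM in CON and 36.8, 3.41 and 14.1 CPM in SAP, P-selectin (Selp) at 2.29, 0 and 7.13 CPM in CON and 91.9, 10.2 and 7.81 CPM in SAP, and E-selectin (Sele) had no UMI in any endothelial nucleus. The 91.9 CPM of Selp in SAP 1 stands for 5 UMIs, and its 0 in CON 2 allows up to 39.3 CPM, above SAP 2 and SAP 3. Vcam1 had 18 UMIs in all endothelial nuclei.

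Junction and permeability genes (32 tested, 19 positive, median 0.14, none called) included Cavin2, a caveolar coat protein, at -1.24 ± 0.55, and the junctional adhesion molecule F11r at 0.72 ± 0.39. The VEGF, angiopoietin and tip cell list (19 tested, 10 positive, median 0.07) was led by Angptl4 at 1.52 ± 0.69, whose fold in other nuclei was 3.03. In the Notch list (18 tested, 11 positive, median 0.07), the target Hes1 was at 17.1, 0 and 26.1 CPM in CON and 36.8, 61.3 and 37.5 CPM in SAP (1.16 ± 0.52), and the receptor Notch1 at 131, 157 and 137 CPM in CON and 129, 68.1 and 116 CPM in SAP (-0.59 ± 0.32). For neither gene did the groups overlap, 1 gene higher and 1 lower of 18, near the shares over all tested genes (3.66% and 5.48%), and the 0 of Hes1 in CON 2 allows up to 39.3 CPM. The endothelial transcription factors (22 tested, 11 positive, median 0.05) had Erg at -0.70 ± 0.64 and Klf6 at 0.62 ± 0.38.

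Of 22 angiocrine genes tested 9 were positive (median -0.12), with Bmp6 at -1.35 ± 0.76 and Pdgfa at 0.88 ± 0.39. Haemostasis and fibrinolysis genes (18 tested, 10 positive, median 0.14) were led by the urokinase receptor Plaur at 0.86 ± 0.35. Basement membrane and matrix genes (34 tested, 17 positive, median 0.01), integrins (16 tested, 8 positive, median 0.01) and transport and lipid genes (29 tested, 15 positive, median 0.06) were centred near the median of all genes. In the last list the lipoprotein receptor Vldlr was at 12.6, 52.4 and 11.9 CPM in CON and 0, 1.70 and 4.69 CPM in SAP (-2.26 ± 0.75, edgeR adjusted p = 1), where the 0 in SAP 1 allows up to 55.1 CPM.

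Among the lists of function, MHC class II, immediate early genes and NF-kB targets had the highest medians. All 10 MHC class II genes tested had positive log2 fold changes (median 0.73), with RT1-Db1 at 89.1, 26.2 and 181 CPM in CON and 331, 353 and 210 CPM in SAP (1.29 ± 0.46), and RT1-Da at 143, 78.6 and 173 CPM in CON and 294, 181 and 244 CPM in SAP (0.61 ± 0.35). None was called, and the median of the list in other nuclei was 1.33. By mean level 3 of the 13 class II genes were higher in endothelial than in other nuclei. Genes of B cells, which express class II as well, had a median of 0.42 in endothelial nuclei (5 of 6 positive) and 1.29 in other nuclei (10 of 10), and their part was not tested. Immediate early genes (21 tested, 18 positive, median 0.55) included Egr1 at 1.54 ± 0.64 and Zfp36, which destabilises cytokine mRNA, at 1.03 ± 0.44, and in other nuclei their median was 1.12. NF-kB targets (27 tested, 19 positive, median 0.40) held 5 genes without overlap, against 3.66% of all tested genes higher in SAP without overlap. Socs3, a brake on cytokine signalling, was at 13.7, 26.2 and 19.8 CPM in CON and 55.1, 49.4 and 37.0 CPM in SAP (1.23 ± 0.46). In other nuclei Socs3 had 0.25, a difference that was not called in the main fit, and the list as a whole had a median of 0.63 there with 35 of 39 genes positive.

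MHC class I and peptide loading genes (30 tested, 23 positive, median 0.17) were led by RT1-CE16 (1.91 ± 0.56) and RT1-CE5 (1.67 ± 0.50), both above every CON library in SAP 1 and SAP 2 and close to the highest CON library in SAP 3. These RT1 genes are near-identical copies whose reads the counting may split. Interferon response genes (30 tested, 12 positive, median -0.13) were mixed, with Isg15 at 2.07 ± 0.75 and the GTPase Igtp at -1.08 ± 0.48. Glucocorticoid and stress genes (26 tested, 20 positive, median 0.26) were mixed as well, and in other nuclei their median was 0.68 with 24 of 31 positive. Fkbp5, a co-chaperone of the glucocorticoid receptor, was at 141, 26.2 and 134 CPM in CON and 349, 267 and 245 CPM in SAP (1.15 ± 0.42), whereas Klf9 was at 58.9, 105 and 67.3 CPM in CON and 18.4, 37.5 and 38.0 CPM in SAP (-1.05 ± 0.39), and the metallothionein Mt1 had -1.72 ± 0.46. With all 6 libraries, the filter on low counts and no replicate block, none of these was called. RT1-CE5 was called with the block (edgeR adjusted p = 0.0282), RT1-CE5 and RT1-CE16 with no filter on low counts (0.0177 and 0.00813), Mt1 without SAP 2 (0.0429) and, in blood nuclei, RT1-CE16 with no filter (0.0331) and without SAP 3 (0.0407).

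Hypoxia and glycolysis genes (24 tested, 16 positive, median 0.12) held 4 genes without overlap, all higher in SAP (3.66% of all tested genes were), namely Ldha, Hif1a, Eno1 and Ndrg1 at log2 fold changes of 0.66 to 0.81. In other nuclei this list had a median of 0.31 with 22 of 28 positive. There 6 were higher and 1 lower without overlap, beside 5.21% and 9.65% of all genes tested. Of the lists of function, proliferation genes had the lowest median, with 33 of 34 tested negative at -0.65. Of these, 8 were without overlap, against 5.48% of all tested genes lower in SAP without overlap. The list summed to 2169, 2254 and 1602 CPM in CON 1 to 3 and 717, 734 and 1888 CPM in SAP 1 to 3, so SAP 3 lay above CON 3. The polymerase subunit Pola1 was at 133, 131 and 125 CPM in CON and 36.8, 44.3 and 115 CPM in SAP (-0.89 ± 0.39). In other nuclei the list had a median of -1.29 with 36 of 37 negative. The 9 smooth muscle genes were also all negative (median -1.39, and -0.91 in other nuclei), with Synpo2 at -1.39 ± 0.44 and Actg2 at -3.08 ± 1.08. Among neutrophil genes S100a8 had 2.93 ± 0.85 and, in other nuclei, 3.70. What such transcripts add to the endothelial sums was not tested.

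**Figure D5:**
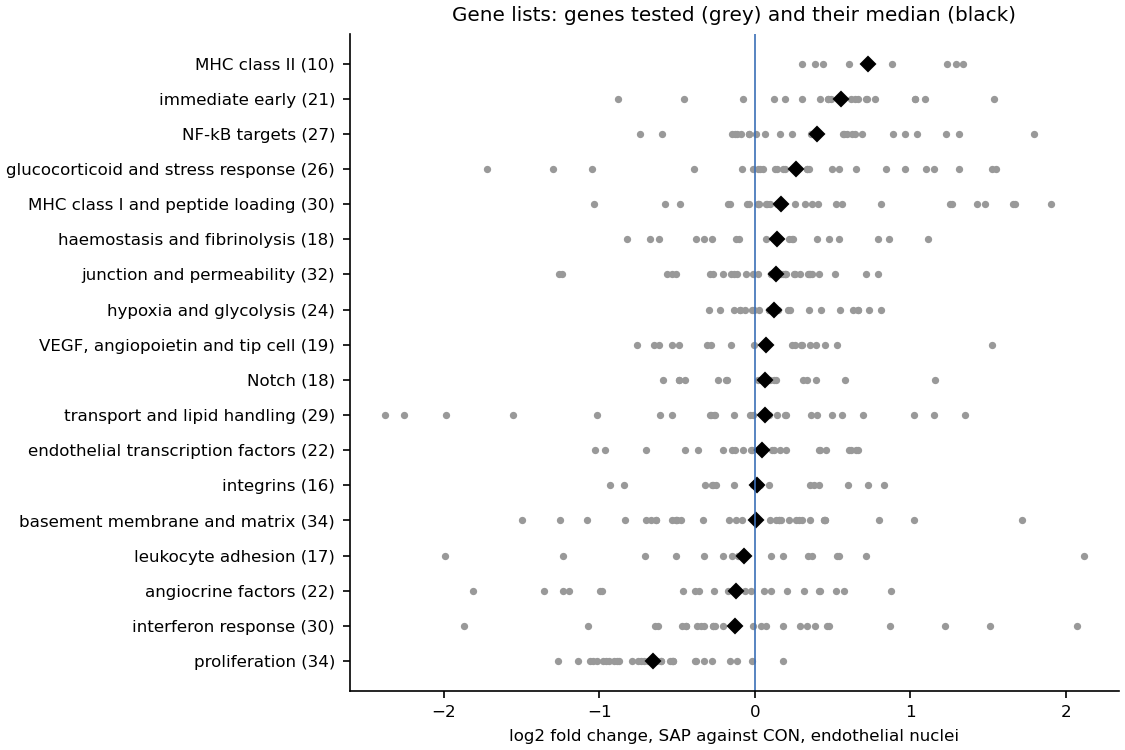
Log2 fold change of SAP against CON endothelial nuclei (x axis) of the genes tested in 18 functional lists (y axis, number of genes tested in parentheses), each gene in grey and the median in black. MHC class II lies highest (median 0.73) and proliferation lowest (-0.65), and no gene of these lists passed in the fit plotted, while Il1r1, Madcam1, Adamts9, RT1-CE5, RT1-CE16 or Mt1 passed with a replicate block, no filter on low counts or SAP 2 left out.

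Whether SAP acted differently on endothelial nuclei than on the other nuclei of the same rat was tested as an interaction over 17442 genes, and 0 passed by edgeR (0%), with 752 at an unadjusted p under 0.05 (4.31%). DESeq2 called 0 as well, with 210 at an unadjusted p under 0.05. The count depended on the libraries and nuclei used, with 35 calls (33 of them negative) without CON 3, 12 after thinning and 8 at 1% mitochondrial UMIs. Without CON 3 these included Btnl9 (-4.63), Rbp7 (-4.24), Gja5 (-4.89), a gap junction protein of arteries, Ccl21 (-3.51) and the laminin Lama4 (-1.65), and after thinning Btnl9 (-4.30), Rbp7 (-4.16) and Gpihbp1 (-3.62), genes picked after their values were seen. The 8 calls at 1% mitochondrial UMIs include the rule gene Pecam1, whose values helped choose the members, so that call is not a result. The smallest p belonged to LOC120095659 (edgeR adjusted p = 0.0627), a gene of unknown name that falls outside the naming rule and was added after its values were seen. It had 7 UMIs in all endothelial nuclei, at 3.43, 0 and 0.792 CPM in CON and 0 in each SAP library, and 60 UMIs in other nuclei, so no fold is given, and it passed in 8 alternatives. The genes that the rule names, none called (edgeR adjusted p from 0.787 to 1), were led by the interferon-induced Ifitm3, at 53.7, 52.4 and 18.2 CPM in CON endothelial nuclei and 55.1, 11.9 and 34.9 CPM in SAP, with a log2 fold change of -0.64 there and 2.20 in other nuclei, each class fitted alone, and a difference of -2.22 in the joint fit, which is estimated within rats and so is not the subtraction of these values. Over the alternatives Clu passed in 5, Ifitm3 in 4 and Spink4 in 3, and the other genes so named in fewer or none. Spns2, the sphingosine-1-phosphate exporter of endothelium, had a log2 fold change of 1.46 in endothelial and 2.67 in other nuclei (difference -1.25). Sema3a, a secreted guidance factor, had 0.58 and -0.36 (difference 1.00), and the transcription factor Mecom -0.14 and -0.91 (0.84).

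Other genes with a negative difference were Tdrd9, Btnl9 (-3.59), Rgma (-2.38), Cxcl2, Dnah8, Clu (-2.53), Rbp7 (-3.21), Rflnb, Spx and Lmcd1, and those with a positive one were Spink4 (1.43), Vip, Gvinp1, C3 (2.18), Agr3, Bora, Slc7a4, Lrrc31, Bzw2 and Crim1. Btnl9 and Rbp7, both markers of capillary endothelium, were low: Btnl9 was at 12.0, 26.2 and 2.38 CPM in CON and 0, 0 and 3.12 CPM in SAP endothelial nuclei. St8sia6, whose change was called in endothelial nuclei, had a difference of 0.81 that was not called.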

How the data were processed

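Nuclei were isolated from ileum and libraries made with the DNBelab C kit. Per the study's methods the authors used dnbc4tools to count UMIs, and they deposited raw counts of genes by barcodes as 1 sparse table per library (28282 genes, 90461 barcodes in all). The submitters' processing notes name Seurat 4.3.0 and the build mRatBN7.2. No normalization preceded deposit. Barcodes are numbered within each library, so shared barcodes could not be counted. No doublet caller was run, and no nucleus was removed as mixed.

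The members and gene lists were chosen with earlier results of these data known. UMIs of all nuclei of a class were summed per library. Levels are CPM over the total of that sum. SAP and CON were compared with edgeR 4.0.16 (R 4.3.3, filterByExpr, TMM, robust quasi-likelihood fit, group only), calls requiring an adjusted p under 0.05 over all genes tested and a log2 fold change of 0.5 or more in size. Overlap between groups, where counted over lists, is on TMM-scaled CPM. The interaction fit had the rat as a block. Lymphatic nuclei had under 10 members in CON 2 (8) and SAP 1 (4), so no lymphatic fit was made. DESeq2 1.42.0 was an alternative, with other normalization, filters, marker rules, mitochondrial limits and libraries left out. Shares were tested by exact permutation with scipy 1.17.1. Fits were tested on simulated data.

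Named genes were the called genes and, up to 12 per direction and fit, genes with the smallest p among those without overlap, leaving out names such as LOC. For levels they were the 15 largest folds among genes with at least 30 UMIs, higher in all 6 libraries. List examples were taken by smallest p. Of 718 list genes 9 were not in the tables. Each rat gave 1 library, so n is the number of rats.

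CON and SAP libraries share the replicate numbers 1 to 3. Deviations from the group means, over other nuclei, correlated at 0.589, 0.18 and 0.515 for equal numbers and at -0.604 to 0.0862 for unequal ones. The replicate block was used on that ground alone, since the labels do not say that equal numbers are pairs. Over endothelial sums the equal-number values were 0.0591, -0.00923 and 0.0587, within the range of the unequal ones (-0.111 to 0.108), so no pairing was seen there. Promoters are RefSeq's on GRCr8 and were matched by symbol. No coordinates of the count tables' build were used.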

Additional observations from a re-analysis of the deposited data

How the results depend on the processing

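The differences in share, SAP minus CON in percentage points, were 0.319 for endothelial, 0.320 for blood and -0.00136 for lymphatic nuclei, and -2.67 for the lymphatic share of endothelial nuclei. Their p was 0.2 to 1 over the alternatives, none of which could fall under 0.05 with so few libraries. Leaving out 1 library moved them from -0.770 to 0.994, -0.496 to 0.748, -0.274 to 0.246 and -11.7 to 3.39, with the sign of the first 2 turning without CON 2 (-0.272 and -0.0236) or without SAP 3 (-0.770 and -0.496). The sign of the lymphatic differences turned at 1% mitochondrial UMIs (0.0308 of passing and 2.93 of endothelial nuclei) and with only members holding 3 of the 27 other endothelial genes (0.00143 and 1.70). It also turned for the share of passing nuclei with only the 4 libraries of shallower members (0.0646), without CON 1 (0.0393), CON 3 (0.205), SAP 1 (0.246) or SAP 2 (0.0239). For the share of endothelial nuclei it turned within libraries listing no barcode under 1000 UMIs (0.265), without SAP 1 (3.39) and without SAP 3 (0.255).

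The number of called genes in endothelial and blood nuclei, 1 and 1 by edgeR, became 3 and 2 with DESeq2, 34 and 16 with no filter on low counts and 29 and 8 with the replicate block. It became 5 and 2 with the 4 libraries of shallower members, and 0 and 0 with the 4 libraries listing no barcode under 1000 UMIs (256 and 199 at an unadjusted p under 0.05), at 1% mitochondrial UMIs (371 and 267, SAP 1 having no nucleus) and after thinning (41 and 10, since 1714 and 694 genes could be tested). At 4 rule genes blood nuclei had 0 (128 unadjusted). DESeq2 was not run in these settings. Leaving out 1 library gave 1 to 9 and 1 to 5, with 9 and 5 without SAP 2, 5 and 4 without CON 3 and 2 in blood nuclei without SAP 3. The interaction, 0 by edgeR, became 5 with scaling by the total alone, 17 with no filter, 4 at 4 rule genes, 8 at 1% mitochondrial UMIs, 12 after thinning, 1 with supported members, and 0 to 35 leaving out 1 library, with 35 without CON 3, 5 without SAP 1, 2 without SAP 3 and 1 without SAP 2. Fewer libraries or genes entered several of these fits, and otherwise the cause was not tested. The 8 interaction calls at 1% mitochondrial UMIs include the rule gene Pecam1, whose values helped choose the members.

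St8sia6 stayed between -5.32 and -3.91 in endothelial and between -4.86 and -3.82 in blood nuclei, its call being lost in 2 and 3 of the 16 alternatives that could test it. After thinning it was not tested. The interaction differences of Gvinp1 (-0.034), Agr3 (-0.13) and Spx (3.71) turned after thinning, and that of Cxcl2 without CON 3 (from -4.91 to 0.74 over the libraries left out). Of 1114 values of named genes under alternatives, 1049 kept their side and sign, 56 newly passed, 5 no longer passed and 4 turned. The alternatives with supported members or with the 4 libraries of shallower members were chosen after seeing the data. So were the gene counts after thinning and with the 4 libraries listing no barcode under 1000 UMIs. For the shares, thinning and the comparison within libraries listing no barcode under 1000 UMIs were planned. Leaving out mixed nuclei left 0 members, so it gave no value. The lymphatic fit and its interaction with blood nuclei were not run, since 2 libraries had under 10 lymphatic nuclei, and a fit of the other 4 libraries was not made.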
